A study of Sus scrofa with 6 samples.

Results

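The genes described here encode 9 enzymes that make serine and move its one-carbon unit onto folate, chosen by symbol from the 20731 genes of the deposited table. The set holds the 3 serine synthesis enzymes PHGDH, PSAT1 and PSPH, 4 mitochondrial folate enzymes (SHMT2, MTHFD2, MTHFD1L and ALDH1L2) and 2 cytosolic ones (SHMT1 and MTHFD1). All 9 symbols matched 1 Ensembl identifier each, and all 9 passed the filter of a mean of at least 1 FPKM, as did 10950 genes in all. FPKM divides the fragments of a gene by its length and by the fragments of its library, so levels of different genes can be set side by side. Total RNA of immature pig Sertoli cells, the somatic cells that nurse the germ cells of the testis, was sequenced in 6 libraries. By their labels 3 were Control libraries and 3 were MT libraries, from cells kept with the pineal hormone melatonin at 10 nM for 36 h. For the Control cells no solvent, dose or time is given, and for both groups the labels give the same cell type and genotype entry and no strain, animal age or culture of origin. Whether replicates came from separate cultures is also not given, and the spread behind each p-value is that of these libraries alone and may be technical.

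Serine is made in the cytosol from the glycolytic intermediate 3-phosphoglycerate. PHGDH oxidises it, PSAT1 transfers an amino group from glutamate, and PSPH removes the phosphate. SHMT2 in mitochondria and SHMT1 in the cytosol then split serine into glycine and a methylene group carried by tetrahydrofolate. In mitochondria MTHFD2 oxidises this folate, MTHFD1L releases formate from it, and ALDH1L2 oxidises the formyl group to carbon dioxide, while in the cytosol MTHFD1 carries several of these steps in 1 protein and can take up formate for purine and thymidylate synthesis. Sertoli cells supply germ cells with small metabolites, and in proliferating cells this pathway feeds nucleotide synthesis.

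Low FPKM values rise in steps of 1 read, from which library totals of 19579279 to 21500665 reads were worked out. At this depth the 9 genes rested on 65 to 16347 reads in a library, with SHMT1 the lowest (65 to 106 reads, a counting error of 12.4% at its lowest) and PSPH next (397 to 1063). Control replicate 3 stood apart: on the component with 68.2% of the variance it lay at 40.4, against -22.0 to 7.52 for the other 5 libraries. Each test on the 9 enzymes is therefore given with and without it, and without it 3 MT libraries face 2 Control libraries. Control 3 was singled out from these same values. Controls 1 and 2 lie close together: chi-square per degree of freedom between their reads was 6.34, against 149 and 141 with Control 3. The p-values without Control 3 may therefore be too small. Of 13 Sertoli markers, 10 were in the table and 4 of those averaged at least 1 FPKM: AMH (11.3 to 15.6 FPKM over the 6 libraries), WT1 (10.00 to 12.8), INHBB (3.26 to 5.06) and SOX9 (1.61 to 2.40). KITLG, INHA, DHH, DMRT1, NR5A1 and TF lay below that level, so several markers of the labelled cell type were near 0. Among fibroblast markers COL1A2 stood at 2635 to 3508 FPKM, while DCN was listed at 0 in 5 of 6 libraries and PDGFRA was under 0.06 FPKM in each. The 4 fibroblast markers in the table summed to 2638 to 2862 FPKM in Control and 3417 to 3511 in MT, a sum made almost wholly of COL1A2, which did not overlap. COL1A1 did overlap, at 3.24 to 4.10 FPKM in Control and 2.79 to 4.98 in MT, and the part of these markers in the results below was not tested. Summed levels of the other lists overlapped between the groups: Sertoli markers 27.9 to 34.2 FPKM in Control and 28.2 to 31.5 in MT, Leydig markers 3.85 to 4.35 and 3.74 to 4.87, peritubular myoid markers 160.3 to 265 and 162 to 194, germ cell markers 0.78 to 1.39 and 1.28 to 1.53, endothelial markers 0.16 to 0.31 and 0.15 to 0.32, and leukocyte markers 3.59 to 4.90 and 4.82 to 5.44. The myoid sum was made almost wholly of TAGLN (154 to 257 FPKM), with DES at 5.55 to 9.43 FPKM. ACTA2, MYH11 and CNN1 averaged under 1 FPKM. CD68, the only leukocyte marker that averaged at least 1 FPKM, did not overlap. It stood at 3.18 to 4.14 FPKM in Control and 4.50 to 5.30 in MT, and its part in the results below was not tested either. In these bulk libraries a smaller number of cells of a type and less RNA per cell cannot be told apart.

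PHGDH and PSAT1 were the most abundant transcripts of the set and differed most between the groups. PHGDH, the entry enzyme (chromosome 4, 101445977 to 101478144 in the RefSeq annotation of Sscrofa11.1), stood at 102, 85.3 and 142 FPKM in Control replicates 1 to 3 and at 239, 222 and 259.8 FPKM in MT replicates 1 to 3. The lowest MT library lay well above the highest Control library, which was Control 3. The means were 109.6 ± 29.1 and 240.4 ± 18.8 FPKM (SD, n = 3 each), 2.19 times as much in MT. On the log2(FPKM + 1) scale the difference was 1.16 (SE 0.19, adjusted p 0.30 over the 10950 genes in limma), so PHGDH did not pass the threshold of 0.05 over 6 libraries. It ranked 21st by p among all genes tested. Without Control 3 it rose by 1.36 (SE 0.10, adjusted p 0.0033 in limma).

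PSAT1, the aminotransferase of the middle step (chromosome 1, 231142673 to 231172364), stood at 105, 101 and 61.6 FPKM in Control and at 193, 229 and 176 FPKM in MT. The groups again did not overlap, but here Control 3 was the lowest library where for PHGDH it had been the highest Control. The means were 89.3 ± 24.1 and 199.4 ± 26.7 FPKM, a log2 difference of 1.18 (SE 0.22, adjusted p 0.35 in limma). Without Control 3 PSAT1 rose by 0.94 (SE 0.11, adjusted p 0.017 in limma). Leaving out Control 3 thus made the PHGDH difference larger and the PSAT1 difference smaller.

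PSPH, the phosphatase of the last step (chromosome 3, 16877904 to 16903062), was far less abundant. It stood at 6.98, 5.94 and 4.21 FPKM in Control and at 8.73, 11.5 and 8.24 FPKM in MT, with every MT library above every Control library. The means were 5.71 ± 1.4 and 9.50 ± 1.78 FPKM, 1.66 times as much in MT. Its log2 difference was 0.65 (SE 0.20, adjusted p 0.82 in limma) over 6 libraries and 0.48 (SE 0.14, adjusted p 0.065) without Control 3, neither past the threshold. For a transcript at this level the added 1 FPKM shrinks the difference, which was 0.74 with a pseudocount of 0.1.

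**Figure D1:**
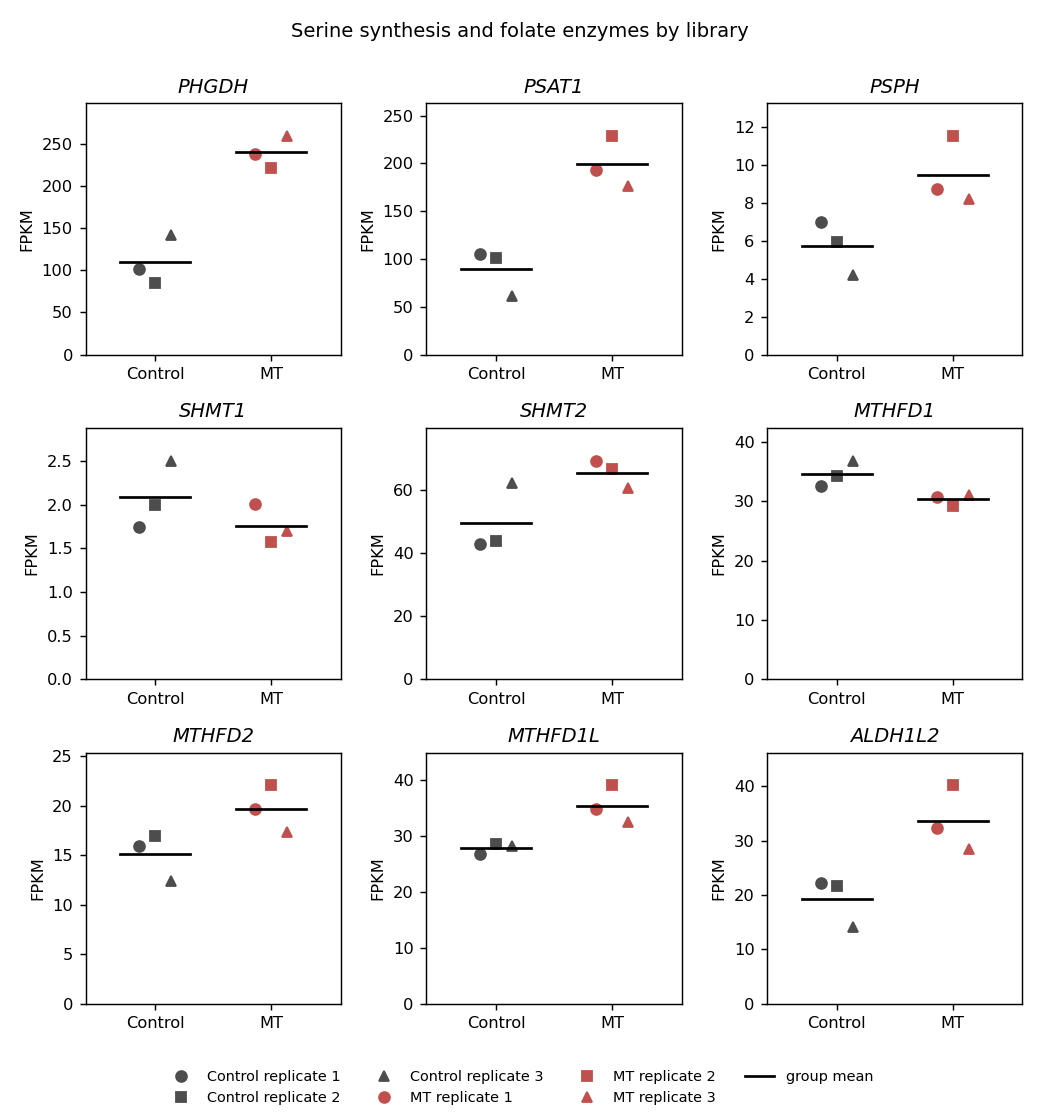
FPKM of the 9 enzymes in each library on linear axes that start at 0, 1 panel per gene, with Control in grey, MT in red, the replicate number given by the symbol and the group mean by a line. PHGDH, PSAT1, PSPH, MTHFD2, MTHFD1L and ALDH1L2 have all MT points above all Control points, MTHFD1 has them below, and SHMT1 and SHMT2 overlap.

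Among the mitochondrial folate enzymes ALDH1L2 differed most. ALDH1L2, which oxidises formyl-tetrahydrofolate with NADP (chromosome 5, 79492672 to 79558702), stood at 22.2, 21.7 and 14.1 FPKM in Control and at 32.5, 40.2 and 28.5 FPKM in MT. All MT libraries lay above all Control libraries, with Control 3 lowest and MT 2 highest. The means of 19.3 ± 4.55 and 33.7 ± 5.95 FPKM differed by 1.75 times, a log2 difference of 0.79 (SE 0.21, adjusted p 0.74 in limma). Without Control 3 ALDH1L2 rose by 0.59 (SE 0.13, adjusted p 0.043 in limma).

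SHMT2, the mitochondrial serine hydroxymethyltransferase (chromosome 5, 22535780 to 22540322), stood at 42.8, 43.8 and 62.4 FPKM in Control and at 69.3, 66.6 and 60.6 FPKM in MT. The groups overlapped, since Control 3 lay above MT 3, while Control 1 and Control 2 lay well below all MT libraries. The log2 difference was 0.41 (SE 0.17, adjusted p 0.9998 in limma) over 6 libraries. Without Control 3 SHMT2 rose by 0.58 (SE 0.08, adjusted p 0.020 in limma).

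MTHFD1L, the mitochondrial formyl-tetrahydrofolate synthetase (chromosome 1, 15140929 to 15330265), stood at 26.7, 28.6 and 28.2 FPKM in Control and at 34.7, 39.0 and 32.4 FPKM in MT. It was the only enzyme of the 9 for which Control 3 lay between the other Control libraries, and the groups did not overlap. Its means were 27.8 ± 1.0 and 35.4 ± 3.33 FPKM, and its log2 difference was 0.33 (SE 0.11, adjusted p 0.88 in limma). Without Control 3 the value was 0.34 (adjusted p 0.054), close to that over 6 libraries and just short of the threshold.

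MTHFD2, the mitochondrial methylene-tetrahydrofolate dehydrogenase (chromosome 3, 68819171 to 68833641), stood at 16.0, 17.0 and 12.4 FPKM in Control and at 19.6, 22.0 and 17.4 FPKM in MT. The groups did not overlap, but MT 3 was only just above Control 2. The log2 difference was 0.37 (SE 0.15, adjusted p 0.9998 in limma) over 6 libraries and 0.24 (adjusted p 0.15) without Control 3. MTHFD2L, a second mitochondrial dehydrogenase of this step and no part of the set, averaged 1.94 ± 0.48 FPKM in Control and 2.0 ± 0.18 in MT, with overlapping libraries.

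Both cytosolic folate enzymes were lower in MT on average, and neither passed the test. MTHFD1, the cytosolic enzyme of several folate steps (chromosome 7, 88471317 to 88533690), stood at 32.6, 34.2 and 36.8 FPKM in Control and at 30.7, 29.2 and 31.0 FPKM in MT. Here all MT libraries lay below all Control libraries. The difference was small, -0.18 on the log2 scale (95% interval -0.42 to 0.06, adjusted p 0.9998 in limma), and -0.14 without Control 3 (adjusted p 0.19).

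SHMT1, the cytosolic hydroxymethyltransferase (chromosome 12, 60414421 to 60435451), stood at 1.74, 2.001 and 2.502 FPKM in Control and at 2.002, 1.57 and 1.70 FPKM in MT. The groups overlapped, and MT 1 was level with Control 2. The log2 difference was -0.16 (95% interval -0.48 to 0.17, adjusted p 0.9998 in limma) over 6 libraries and -0.06 without Control 3 (adjusted p 0.71). ALDH1L1, the cytosolic counterpart of ALDH1L2, averaged 0.66 ± 0.03 FPKM in Control and 0.62 ± 0.11 in MT, under the filter, so no ratio to it was tested.

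Across the set, 0 of 9 enzymes passed an adjusted p of 0.05 over 6 libraries, as did 0 of the 10950 genes (0.00%). An unadjusted p under 0.05 was given to 517 genes by limma, to 494 by limma voom on the reads worked out, and, higher in MT, to 7 of the 9 enzymes, against 255 of all genes (2.33%). Lower in MT, it was given to 0 of the 9 (2.39% of all genes). Groups that did not overlap were found for 6 enzymes with MT above Control (6.24% of all genes) and for 1 with MT below (4.99%), 7 of 9 in all against 11.2% of all genes. The median log2 difference of the 9 enzymes was 0.41, beside 0.02 for all genes tested. Control 3 was left out for its place in these same data, and leaving out any other library gave 0 genes past the adjusted threshold. Without Control 3, 4 of the 9 passed it (10.9% of all genes did). All 4 rose (4.28% of all genes rose) and 0 fell (6.62%), with a median difference of 0.48 for the 9 and -0.0037 for all genes. With Control 3 left aside, MT lay above both other Control libraries for 7 enzymes (25.9% of all genes) and below them for 1 (30.3%). The members were chosen with earlier results of these data known, so these counts and shares are set side by side without a test.

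**Figure D2:**
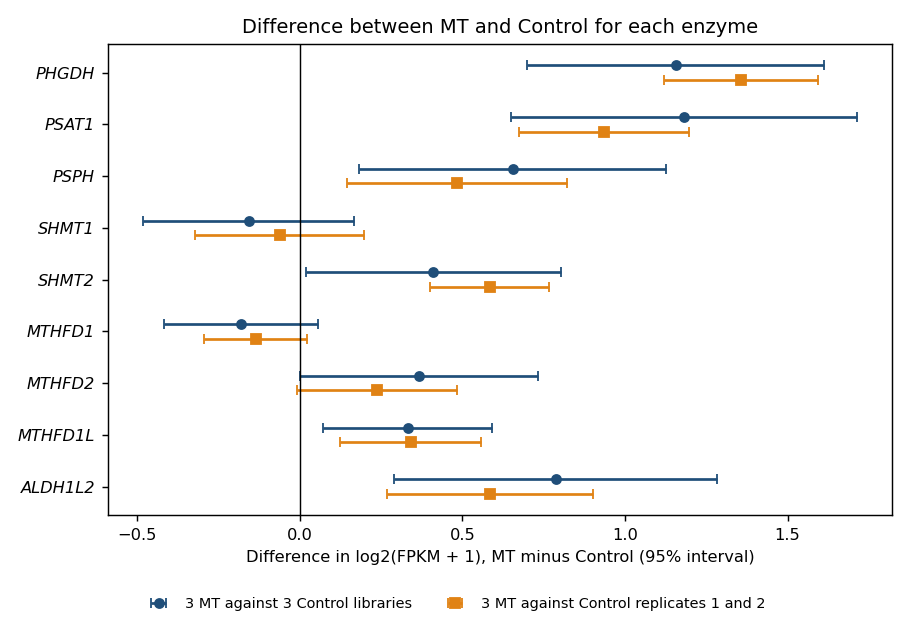
Difference in log2(FPKM + 1) between MT and Control for each enzyme, with 95% intervals from limma (not adjusted for the number of genes), over 6 libraries (blue circles) and without Control replicate 3 (orange squares). PHGDH and PSAT1 have the largest differences of the 9 (1.16 and 1.18 over 6 libraries), and SHMT1 and MTHFD1 have intervals that include 0 in both fits.

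Mitochondrial and cytosolic folate enzymes were then set against each other within each library, since FPKM is scaled to length and a ratio within a library is free of its size. The ratio of SHMT2 to SHMT1 was 24.5, 21.9 and 24.9 in Control and 34.6, 42.4 and 35.7 in MT. Although SHMT2 itself overlapped between the groups, this ratio did not, with SHMT1 also at its highest in Control 3. The mean ratio was 23.8 ± 1.65 in Control and 37.6 ± 4.24 in MT (SD, n = 3 each). The log2 ratio, taken between values of log2(FPKM + 1), differed by 0.57.

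MTHFD2 stood at 0.49, 0.50 and 0.34 of the MTHFD1 level in Control and at 0.64, 0.75 and 0.56 of it in MT, with no overlap and a difference in log2 ratio of 0.55. MTHFD1L stood at 0.82, 0.84 and 0.77 of the MTHFD1 level in Control and at 1.13, 1.34 and 1.05 of it in MT, a difference of 0.51. By FPKM the cytosolic transcript was thus the higher of this pair in every Control library, and the mitochondrial transcript in every MT library. That order depends on the gene lengths used, and the annotation release behind them is not recorded. Each of the 3 isozyme ratios gave p = 0.10 in a two-sided exact permutation test, the smallest that 3 libraries against 3 allow, so none of the 6 ratios compared here could reach 0.05. The MTHFD2 and MTHFD1L ratios share MTHFD1, itself lower in every MT library, and so are not separate results. The SHMT2 ratio divides by SHMT1, at 65 to 106 reads in a library. Without Control 3 the differences were 0.65 for SHMT2 to SHMT1, 0.37 for MTHFD2 to MTHFD1 and 0.48 for MTHFD1L to MTHFD1, again with no overlap. The two-sided exact permutation p was then 0.10, 0.20 and 0.10 in that order. The smallest that 3 libraries against 2 allow is 0.10.

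Averaged over each set on the log2(FPKM + 1) scale, the 4 mitochondrial enzymes stood 1.45, 1.4 and 1.10 above the 2 cytosolic ones in Control and 1.89, 2.18 and 1.81 above them in MT. The gap was wider in every MT library than in any Control library. The mitochondrial mean was higher in MT by 0.47 and the cytosolic mean differed by -0.17. The 2 sets are not matched: ALDH1L2, the mitochondrial member with the largest difference (0.79), has no cytosolic counterpart among the members. These means carry no test, since the members were chosen with earlier results known.

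**Figure D3:**
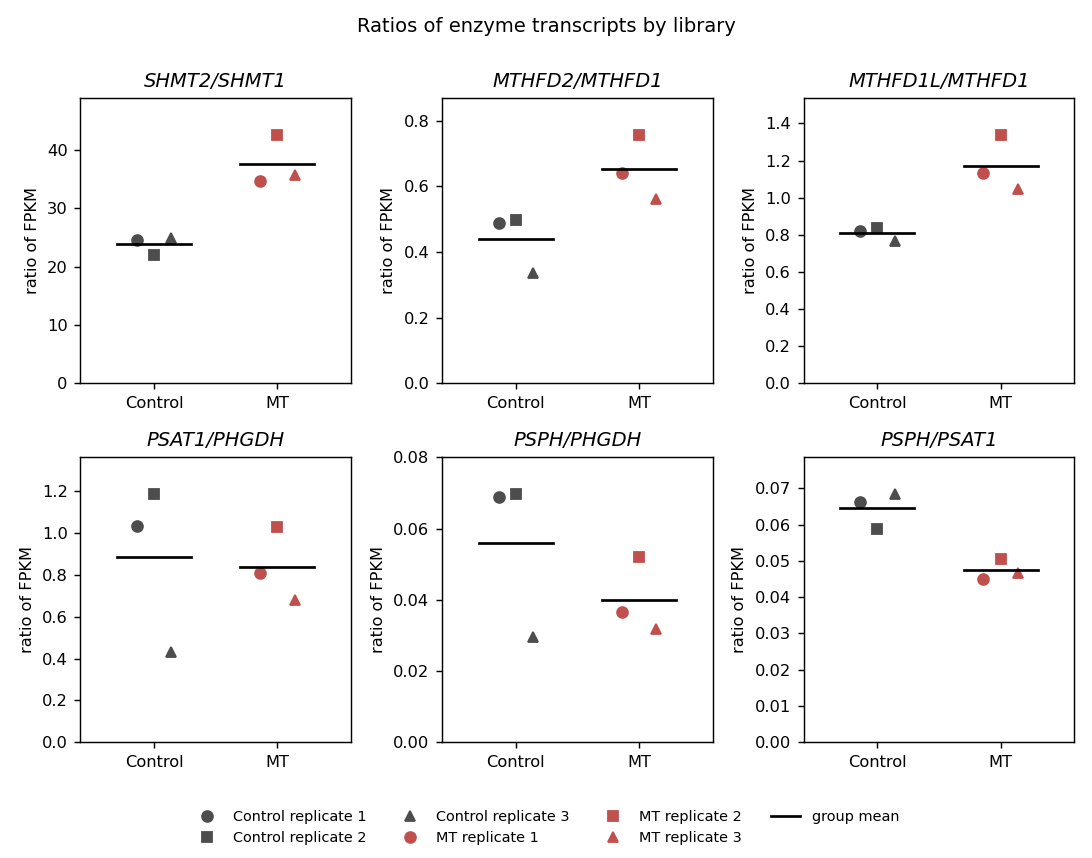
Ratio of the FPKM of 2 enzymes in each library, on linear axes that start at 0, with mitochondrial over cytosolic folate enzymes in the upper row and pairs of serine synthesis enzymes in the lower row. The upper ratios are higher in every MT library than in every Control library, and in the lower row only PSPH/PSAT1 separates the groups.

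The 3 serine enzymes did not keep fixed proportions. PSAT1 stood at 1.04, 1.19 and 0.43 of the PHGDH level in Control and at 0.81, 1.03 and 0.68 of it in MT. Control 3 had the lowest ratio of all libraries, and the groups overlapped. The log2 ratio was -0.30 ± 0.78 in Control and -0.27 ± 0.30 in MT, a difference of 0.02 (exact permutation p = 1, two-sided), and this spread leaves room for a sizeable difference in either direction. Without Control 3 the difference was -0.42 (exact permutation p = 0.20, two-sided), of the opposite sign. The groups then did not overlap, though MT 2 (1.03) lay only just below Control 1 (1.04).

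PSPH relative to PSAT1 was steadier. It stood at 0.066, 0.059 and 0.068 of the PSAT1 level in Control and at 0.045, 0.050 and 0.047 of it in MT, lower in every MT library. The log2 ratio differed by -0.53 (exact permutation p = 0.10, two-sided, the smallest possible), and by -0.45 without Control 3 (exact permutation p = 0.10). Part of any difference in ratio on this scale comes from the added 1 FPKM, which weighs more on PSPH; the linear means were 0.064 ± 0.005 and 0.047 ± 0.003. PSPH relative to PHGDH overlapped between the groups, with a log2 difference of -0.50 (exact permutation p = 0.30, two-sided). The difference was -0.87 without Control 3 (exact permutation p = 0.20, two-sided), -0.30 without Control 2 and -0.33 without Control 1. Without Control 3 this ratio was lower in every MT library than in Controls 1 and 2.

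By level, the order in Control was PHGDH, PSAT1, SHMT2, MTHFD1, MTHFD1L, ALDH1L2, MTHFD2, PSPH and SHMT1. Neighbours whose Control libraries overlapped were PHGDH and PSAT1, PSAT1 and SHMT2, and ALDH1L2 and MTHFD2. In MT the order was the same except that MTHFD1 came after MTHFD1L and ALDH1L2, moving from rank 4 to rank 6. PHGDH and PSAT1 overlapped in MT, as did MTHFD1L and ALDH1L2, and ALDH1L2 and MTHFD1, so the order of those neighbours was not set beyond their spread.

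Within the groups, libraries differed in a patterned way. PSAT1, PSPH and ALDH1L2 had the same order, with Control 1 above Control 2 above Control 3 and MT 2 above MT 1 above MT 3, an order shared by 689 of all genes tested (6.29%). MTHFD1 had exactly the reverse order in both groups, an order found in 861 genes (7.86%). PHGDH also ran against PSAT1 in most places: Control 3 was its highest Control library and MT 2 its lowest MT library. The PHGDH order was shared by 1358 of all genes tested (12.4%). MTHFD2 had exactly the reverse of it, an order found in 799 genes (7.30%). Control 3 differed from the mean of the other Control libraries by -0.74 for PSAT1, -0.61 for ALDH1L2, -0.51 for PSPH and -0.39 for MTHFD2 on the log2(FPKM + 1) scale, and by 0.60 for PHGDH, 0.52 for SHMT2, 0.29 for SHMT1, 0.14 for MTHFD1 and 0.03 for MTHFD1L. Enzymes of the same pathway thus parted in this library, in which PHGDH and SHMT2 lay towards the MT level and PSAT1, PSPH, MTHFD2 and ALDH1L2 away from it. These orders were looked at after the values were seen.

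**Figure D4:**
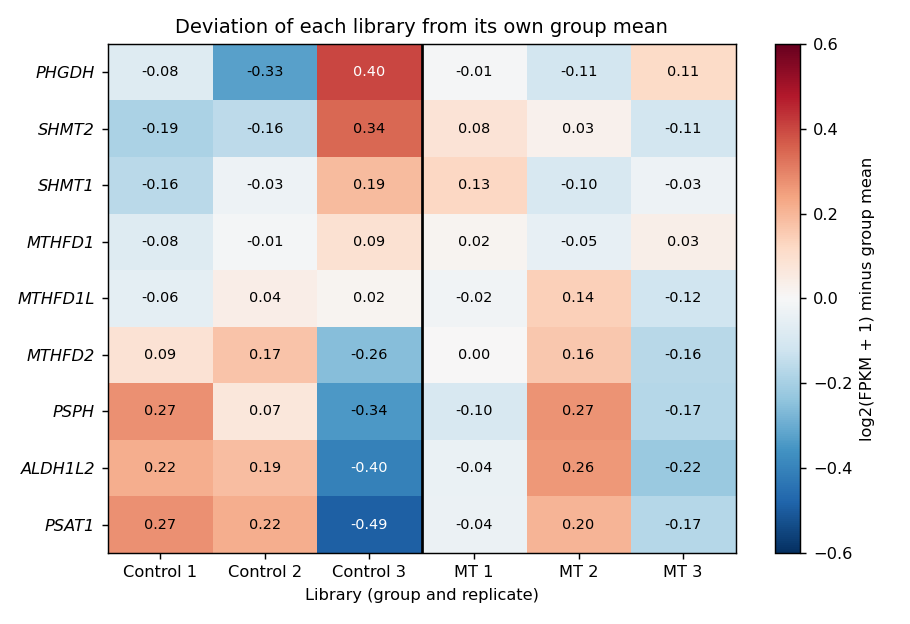
Deviation of each library from its own group mean in log2(FPKM + 1), for the 9 enzymes (rows) and 6 libraries (columns), with red above and blue below the mean. In Control 3, PHGDH (0.40) and SHMT2 (0.34) lie above their group mean while PSAT1 (-0.49), ALDH1L2 (-0.40), PSPH (-0.34) and MTHFD2 (-0.26) lie below it.

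The neighbouring steps of the pathway were read from 7 lists of 61 genes, of which 43 were tested. Of these, 23 were higher and 20 lower in MT, with a median log2 difference of 0.03 beside 0.02 for all genes, and 0 passed the adjusted threshold over 6 libraries. An unadjusted p under 0.05 in limma was given to 3 of the 43 (4.72% of all genes), all of them transporters of serine, glycine and related amino acids. Among the 9 transporters 7 were higher and 2 lower, with a median of 0.18.

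SLC6A9, which carries glycine across the cell membrane, stood at 13.8, 12.5 and 20.1 FPKM in Control and at 28.9, 29.6 and 25.3 FPKM in MT. Its groups did not overlap, and its log2 difference was 0.84 (SE 0.18, adjusted p 0.45 in limma). SLC1A4, a carrier of serine, alanine and cysteine, stood at 4.46, 4.89 and 5.90 FPKM in Control and at 9.46, 9.95 and 7.99 FPKM in MT, a difference of 0.74 (SE 0.14, adjusted p 0.35 in limma), and did not overlap either. SLC1A5 is a carrier of glutamine and other neutral amino acids. It stood at 249.7, 253 and 279.5 FPKM in Control and at 313, 316 and 299 FPKM in MT. Its difference was smaller, at 0.25 (SE 0.10, adjusted p 0.9998 in limma). Without Control 3 all 3 rose, SLC6A9 by 1.03, SLC1A4 by 0.83 and SLC1A5 by 0.30 (adjusted p 0.0066, 0.018 and 0.037 in limma). SFXN1, the carrier that brings serine into mitochondria, averaged 12.4 ± 1.35 and 13.5 ± 0.29 FPKM, with overlapping libraries, and was named after its values were seen.

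The other 6 lists had medians between -0.09 and 0.04, and 0 of their members passed over 6 libraries. Of 6 tested genes of folate uptake, retention and reduction 4 were higher, with FOLR2, a folate receptor, at a log2 difference of 0.17 and MTHFS, which recycles 5-formyl-tetrahydrofolate, at 0.06. Of 5 other folate enzymes 3 were higher, and thymidylate synthase TYMS had a difference of -0.07. De novo purine synthesis, which uses formyl groups, had 2 of 6 tested members higher, with PPAT, its first committed enzyme, at -0.21 and GART, which takes up a formyl group, at 0.15.

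Of 7 tested genes of the methionine cycle 4 were higher, and MAT2A and MAT2B, the subunits of S-adenosylmethionine synthesis, had log2 differences of -0.16 and 0.18. Genes of glycine cleavage and of glycine and serine use had 1 of 6 tested members higher. There SPTLC1 and SPTLC3, subunits of the enzyme that joins serine to a fatty acid in sphingolipid synthesis, had differences of -0.17 and 0.31, and SPTLC1 fell without Control 3 by 0.48 (adjusted p 0.043 in limma). GLDC, the decarboxylase of the glycine cleavage system, was under the filter, with means of 0.08 ± 0.03 FPKM in Control and 0.03 ± 0.03 in MT. Glycolytic enzymes around 3-phosphoglycerate had 2 of 4 higher, with PGK1 at 0.07 and BPGM at 0.16. Without Control 3, 3 genes of the 7 lists rose (the transporters above, against 4.28% of all genes) and 1 fell (6.62%).

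**Figure D5:**
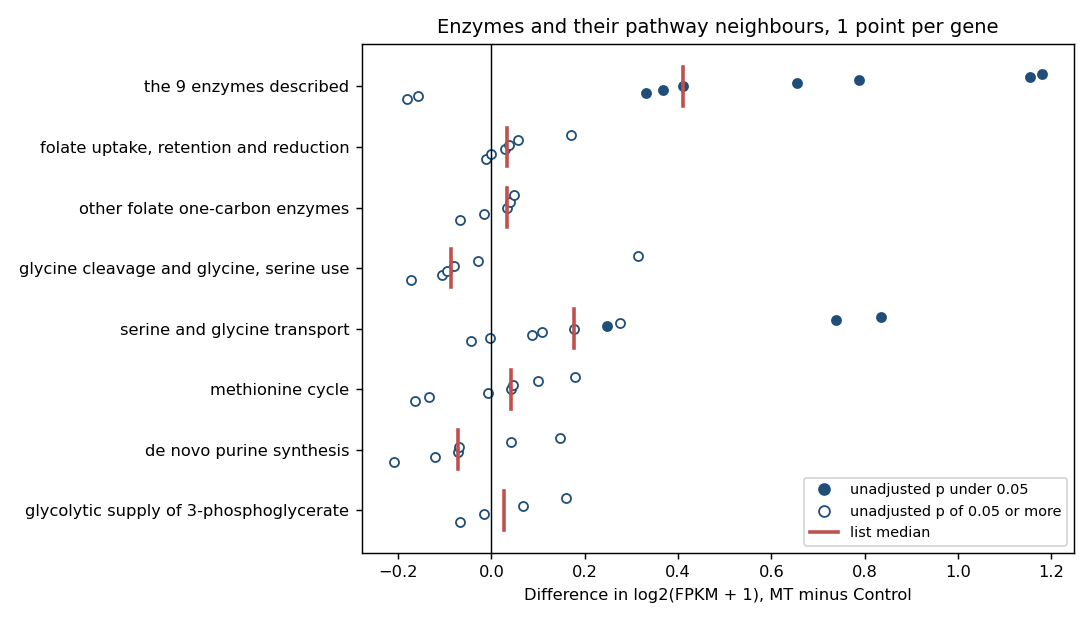
Difference in log2(FPKM + 1), MT minus Control over 6 libraries, for the 9 enzymes and for the tested genes of 7 neighbouring lists, 1 point per gene, filled where the unadjusted p in limma was under 0.05, with a red line at each median. The median is 0.41 for the 9 enzymes and 0.18 for the transporters, and the other lists lie between -0.09 and 0.04.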

How the data were processed

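RNA-seq libraries of 3 Control and 3 MT samples were used, grouped by sample title. The authors deposited FPKM per gene and library, not pooled. Tools listed in the submitters' processing notes are bcl2fastq, HISAT2, featureCounts and Subread, with build Sscrofa11.1 and no versions. Annotation release, strand setting and the handling of reads shared by gene copies or overlapping genes are not recorded in the labels or the file. FPKM is tied to each library's total, so a few abundant transcripts can move all values. Symbols came from a table of Ensembl identifiers (13173 of 20731 genes), and positions, by symbol, from RefSeq Sscrofa11.1.

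The 10950 genes that averaged at least 1 FPKM were compared in limma 3.58.1 (R 4.3.3) after adding 1 and taking log2, with eBayes using a variance trend. The test was two-sided with no covariate, with Benjamini-Hochberg adjustment over all genes and a threshold of 0.05. This scale understates changes of low genes. The model was tested on simulated data. Ratios were compared by exact permutation in Python 3.11.15. Steps of the low values gave whole reads within 0.01 for 10950 tested genes (100%). Chi-square per degree of freedom between libraries of a group was 6.34 to 149, so none was a copy.

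The members, lists and tests were chosen with earlier results of these data known. Named were the 9 enzymes, neighbours with an unadjusted p under 0.05 (otherwise the 2 with the smallest p in a list) and the 5 genes most like PHGDH and MTHFD2. Of these, 1 gene is not reported here. MTHFD2L, ALDH1L1, SFXN1 and GLDC were named outside this rule. The alternatives changed the pseudocount, the filter, the scaling or the variance model, or used voom, sample weights, a replicate block or 1 library fewer. Promoter sequence was not analysed here.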

Additional observations from a re-analysis of the deposited data

How the results depend on the processing

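Over 6 libraries the direction of all 9 enzymes was kept under every alternative that gave a value. SHMT1 has none with the filter of at least 5 FPKM. Over all alternatives the log2 difference ranged from 0.99 to 1.43 for PHGDH, 0.92 to 1.32 for PSAT1, 0.44 to 0.79 for PSPH, 0.55 to 0.90 for ALDH1L2, 0.32 to 0.61 for SHMT2, 0.26 to 0.39 for MTHFD1L, 0.20 to 0.45 for MTHFD2, -0.22 to -0.14 for MTHFD1 and -0.24 to -0.02 for SHMT1. The number of genes past the threshold was 0 to 1194 with 1 library left out, and of enzymes 0 to 4; both maxima came without Control 3, and any other library left out gave 0. Limma sample weights were 0.052 for Control 3, 4.757 for Control 2, 4.965 for MT 1 and 0.51 to 1.30 for the other libraries. With them the fit leaned mostly on Control 2 and MT 1. It called 6309 of the 10950 genes tested and 8 enzymes, SHMT1 being the exception. Most genes passed in this fit, so the 8 calls are not particular to the enzymes. The cause was not tested. The number of enzymes whose groups did not overlap was 7 with median ratio scaling, 8 with quantile normalisation and 7 to 8 with 1 library left out. A smaller group overlaps less easily: without Control 3, MT lay above both Control libraries in 25.9% of all genes and below them in 30.3%. For the other settings the share of all genes was not worked out. The counts of enzymes under those settings therefore show nothing particular to the enzymes. The PSAT1/PHGDH log2 ratio difference ran from -0.42 to 0.30 with 1 library left out, and was reversed without Control 3 (-0.42) and without MT 2 (-0.13). The PSPH/PHGDH difference ran from -0.87 to -0.30, with its smallest sizes without Control 2 (-0.30) and Control 1 (-0.33). The isozyme ratio differences kept their sign throughout. With the replicate number as a block 0 genes and 0 enzymes passed, with 499 genes at an unadjusted p under 0.05. Deviations of same-numbered libraries correlated at -0.44, 0.63 and 0.34 for numbers 1 to 3, so the numbers were not taken to pair the libraries. Depth limits SHMT1 most.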

Other observations

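The genes whose profile over the 6 libraries was most like that of PHGDH, by Pearson correlation of log2(FPKM + 1), were COL5A1, a collagen chain, HEXA, a lysosomal hexosaminidase, ULK2, a kinase of autophagy initiation, RIMS3 and C7orf50. For COL5A1 the Control mean was 119.9 ± 7.07 FPKM and the MT mean 146 ± 2.87, and for RIMS3 they were 1.36 ± 0.38 and 2.96 ± 0.13 (SD, n = 3 each). Most like MTHFD2 were AKTIP, SKAP1, BEND7, PPP3CA, a catalytic subunit of calcineurin, and RALA, a small GTPase. AKTIP averaged 16.7 ± 2.88 and 21.9 ± 2.92 FPKM. Of the other enzymes, ALDH1L2 (0.979) and PSPH (0.953) came closest to MTHFD2, ALDH1L2 just below RALA (0.980). Of the 10950 genes tested, 104 lay above a correlation of 0.95 with PHGDH and 40 with MTHFD2. These are descriptions over 6 libraries, of which Control 3 lies far from the rest.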
